A study of Mus musculus with 23 samples.

Results

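In all, 10 genes known from dendritic cells and plasmacytoid dendritic cells were followed across sorted mouse CD4+ T cells: Siglech, Itgax, Mpeg1, Tyrobp, Kmo, Rnase6, Dnase1l3, Spib, Fcer1g and Fcgr3. They were chosen from measured values, mainly their lower level in the CD49f+ gate of CD25- cells, and every probe set of the array annotated to one of them alone was taken. That gave 11 probe sets of 45101 and 10 genes of 18194. Total RNA of cells labelled T cells was measured on 23 oligonucleotide arrays in 4 groups. The gates used CD25, a chain of the receptor for interleukin-2, and CD49f, the alpha 6 integrin chain. CD25-CD49f- and CD25-CD49f+ cells had 7 arrays each, CD25+CD49f- had 5 and CD25+CD49f+ had 4. All groups came from the CD4+ gate and were labelled female. The labels call the arrays of a group biological replicates and give no age, tissue, strain or number of mice per array, so the p-values below speak of the spread between these arrays. The question put to the 10 transcripts was how they differed between the 4 gates, and from array to array, in cells sorted for CD4.

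Dendritic cells take up antigen and present it to T cells on class II molecules. Plasmacytoid dendritic cells are a lymphoid-looking type that senses viral nucleic acids in endosomes and secretes type I interferon, and Siglech marks them in the mouse. Some dendritic cells of the mouse carry CD4 on their surface. Several of the 10 genes act in one receptor system: the adaptors Tyrobp and Fcer1g carry activation motifs (ITAMs) that recruit the kinase Syk when a partner receptor such as Siglech or Fcgr3 is engaged.

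All values below are RMA log2 levels, and differences are log2 differences with their standard errors from a limma fit of the 4 groups. A gene was called at a Benjamini-Hochberg adjusted p under 0.05 over 18194 genes. The arrays had medians of 5.18 to 5.34, and arrays of a group correlated at 0.965 to 0.996. The 4 arrays least like their own group, with a median correlation of 0.9668 to 0.9815 to it against 0.989 or more for the rest, are called arrays that stood apart: CD25-CD49f- replicates 1 and 7, CD25-CD49f+ replicate 1 and CD25+CD49f- replicate 5. Against the label, 10 arrays had Y-linked transcripts without Xist, 1 had both (CD25+CD49f- replicate 5) and 12 had Xist alone, and every group held both kinds. These arrays also show what an absent transcript reads: one Xist probe set gave up to 6.499 on arrays without Xist, and the other Xist and Y-linked probe sets gave at most 2.776 to 5.62 where their gene was absent. What the members' own probe sets read without their transcript was not measured, so levels in that range cannot be told from no transcript. Differences that reach into it are those of the signals alone. The T cell transcript Cd3e averaged 11.7 in CD25-CD49f-, 11.66 in CD25-CD49f+, 11.65 in CD25+CD49f- and 11.66 in CD25+CD49f+ cells. Il2ra, which codes CD25, averaged 5.42, 6.84, 9.69 and 9.6 in the same order, and Foxp3, the factor of regulatory T cells, 4.74, 8.25, 9.79 and 9.85. Itga6, which codes CD49f, averaged 9.79, 9.36, 9.64 and 9.81, and Cd4 averaged 9.68, 9.53, 9.39 and 9.12.

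The promoters of 4 members are shown because they stand for the patterns below: Siglech and Kmo, highest in CD25-CD49f- cells, Rnase6, which shares that group and lay closest to passing after Fcer1g among CD25+ cells, and Fcer1g, highest in CD25+CD49f- cells. Spib and its relative Spi1 are Ets factors that bind purine-rich sites with GGAA at their core, so the letters GAGGAAGT and the shorter GAGGAA, which lies within it, were searched on both strands. The bases come from RefSeq (GRCm38.p6), run 5′ to 3′ on the gene's strand and end before an annotated start. Capitals mark a match. The windows are chr7:55767934-55768153 (plus strand) for Siglech, chr1:175631943-175632192 (plus) for Kmo, chr14:51128787-51129036 (plus) for 1 of 3 listed starts of Rnase6, and chr1:171234350-171234599 (minus) for Fcer1g. The Rnase6 window was picked among those that hold a match, and it lies inside the annotated span of the gene. The Rnase6 window before the outermost start, chr14:51123658-51123907, held no match.
Siglech: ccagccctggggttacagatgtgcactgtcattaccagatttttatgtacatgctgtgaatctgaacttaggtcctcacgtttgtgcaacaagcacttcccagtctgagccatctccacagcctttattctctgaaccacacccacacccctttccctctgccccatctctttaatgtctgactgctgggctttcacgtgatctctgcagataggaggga
Kmo: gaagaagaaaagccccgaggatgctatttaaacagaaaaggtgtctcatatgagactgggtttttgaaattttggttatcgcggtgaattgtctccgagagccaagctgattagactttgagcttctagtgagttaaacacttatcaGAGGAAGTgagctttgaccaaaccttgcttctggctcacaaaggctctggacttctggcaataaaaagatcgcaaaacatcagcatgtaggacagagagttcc
Rnase6: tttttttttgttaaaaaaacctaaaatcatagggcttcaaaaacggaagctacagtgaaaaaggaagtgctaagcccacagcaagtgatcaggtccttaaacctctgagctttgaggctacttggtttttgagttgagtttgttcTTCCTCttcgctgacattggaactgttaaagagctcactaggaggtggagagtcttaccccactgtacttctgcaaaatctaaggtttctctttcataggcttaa
Fcer1g: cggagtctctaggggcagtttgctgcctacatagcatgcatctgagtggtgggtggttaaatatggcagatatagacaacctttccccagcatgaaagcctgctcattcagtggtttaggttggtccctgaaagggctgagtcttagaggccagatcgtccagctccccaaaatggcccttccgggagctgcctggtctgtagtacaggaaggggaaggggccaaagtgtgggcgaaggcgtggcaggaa
In the windows shown, Kmo held GAGGAAGT on its own strand, and Rnase6 held GAGGAA on the opposite strand, read there as TTCCTC. Neither string lay in the windows of Siglech and Fcer1g. Of the 8 members with a listed promoter (11 entries), 1 held GAGGAAGT and 3 held GAGGAA (Kmo, Rnase6 and Fcgr3). By entry, 1 of the 11 held GAGGAAGT and 5 held GAGGAA, some in overlapping windows of 1 gene. Over all 32851 listed promoters, also counted by entry, the shares were 2.44% and 23.3%. A match is a description of the letters and not a binding site.

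In 8 of the 10 transcripts the highest mean was in CD25-CD49f- cells, and the other 3 groups lay lower and overlapped. These were the lectin Siglech, the integrin chain Itgax, the adaptor Tyrobp, the pore-forming protein Mpeg1, the enzymes Kmo, Rnase6 and Dnase1l3, and the transcription factor Spib. Fcer1g was highest in CD25+CD49f- cells, and Fcgr3 was higher in both CD25- groups than in both CD25+ groups. The 8 shared this highest group, while the order of the lower groups varied among them. In bulk samples such as these, fewer cells of a type and less RNA per cell cannot be told apart.

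**Figure D1:**
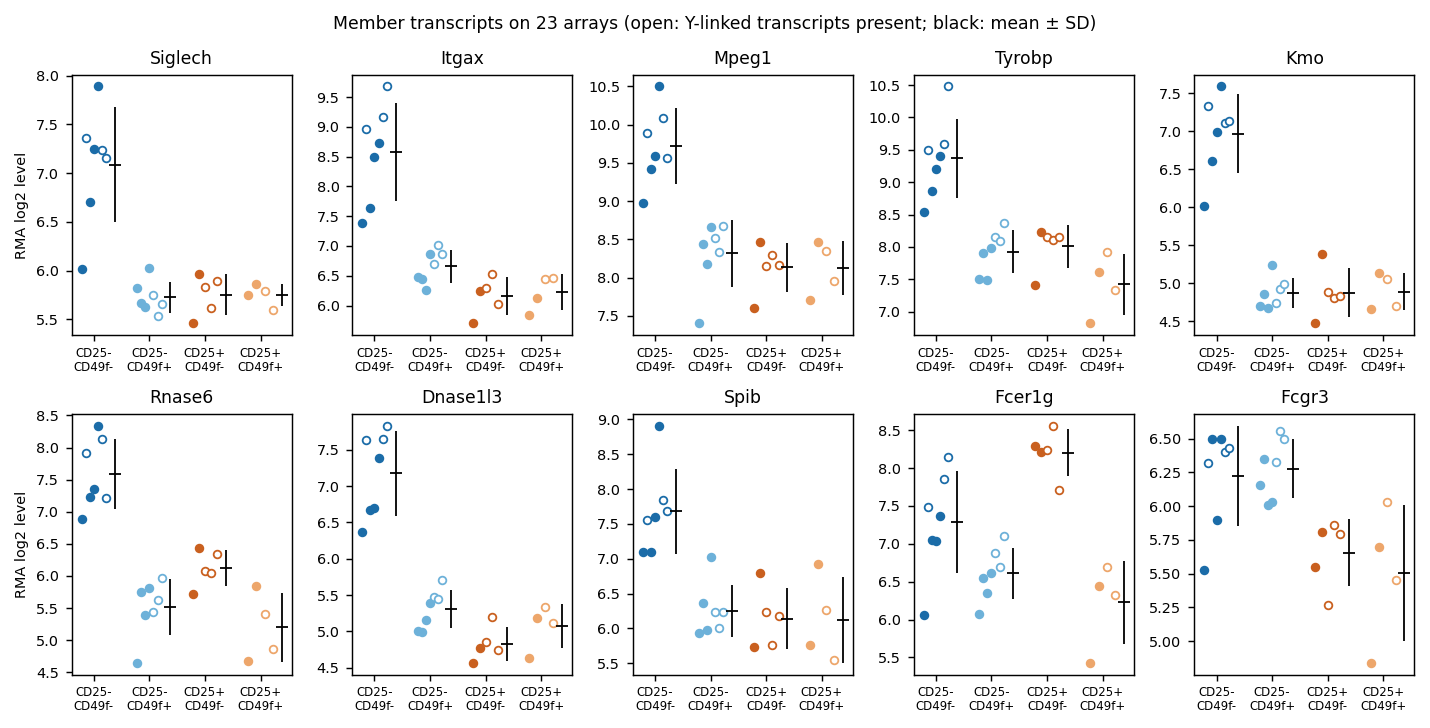
Each panel plots the RMA log2 level of 1 transcript (vertical axis, its own range) on the 23 arrays in 4 groups by CD25 and CD49f; points are arrays, open points have Y-linked transcripts, and black marks give the mean and SD. In 8 panels the CD25-CD49f- arrays are the high group, whereas Fcer1g is highest on the 5 CD25+CD49f- arrays, between 7.71 and 8.56.

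Among the surface receptors, Siglech (chr7:55768154-55779448) codes a sialic acid-binding lectin that signals through Tyrobp. On the CD25-CD49f- arrays it read 6.02 at the lowest, 7.24 at the median and 7.89 at the highest. The CD25-CD49f+ arrays gave 5.54, 5.67 and 6.03. In CD25+CD49f- cells its 5 levels were 5.46, 5.97, 5.83, 5.62 and 5.89, and in CD25+CD49f+ cells the 4 levels were 5.75, 5.86, 5.79 and 5.6. Only replicate 1 of the CD25-CD49f- arrays came down to the level of the other groups, where it met the highest CD25-CD49f+ array, and the 3 lower groups overlapped fully. All 16 of their values lay under 6.499, within reach of the absent signal. The difference between CD25-CD49f+ and CD25-CD49f- cells was -1.36 ± 0.18, a description with no test because the members were chosen on it.

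Itgax (chr7:128129526-128150657), the CD11c chain used to identify dendritic cells, spanned 7.39 to 9.68 with a median of 8.73 in CD25-CD49f- cells. Its CD25-CD49f+ levels were 6.26 to 7.02, with a median of 6.69. The CD25+CD49f- arrays read 5.7, 6.24, 6.3, 6.53 and 6.03, and the CD25+CD49f+ arrays 5.84, 6.13, 6.45 and 6.47. No array of another group reached the CD25-CD49f- range, and both CD25+ groups overlapped with the lower CD25-CD49f+ arrays. Its differences against CD25-CD49f- cells were -1.92 ± 0.25 for CD25-CD49f+ cells and -2.42 ± 0.28 for CD25+CD49f- cells. The CD25+CD49f- and CD25+CD49f+ means, 6.16 and 6.22, lay in the range of the absent signal, so the latter difference is that of the signals.

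Fcgr3 (chr1:171051169-171065915) codes a low-affinity receptor for IgG that needs the Fcer1g chain for its place on the cell surface. In CD25-CD49f- cells it read 5.53, 6.4 and 6.5 (lowest, median and highest), and in CD25-CD49f+ cells 6.01, 6.33 and 6.56. The CD25+CD49f- levels were 5.55, 5.81, 5.27, 5.86 and 5.79, and the CD25+CD49f+ levels 4.84, 5.7, 6.03 and 5.45. The CD25- groups overlapped fully, with a difference of 0.05 ± 0.16. Its levels did not set CD25-CD49f- cells apart, unlike the levels of the other receptors, and its group means, 5.51 to 6.28, all lay in the range of the absent signal.

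Of the adaptors, Tyrobp (chr7:30413782-30417582), also known as DAP12, spanned 8.54 to 10.48 in CD25-CD49f- cells with a median of 9.4. In CD25-CD49f+ cells the range was 7.49 to 8.37 around a median of 7.98. On the CD25+CD49f- arrays it read 7.42, 8.23, 8.15, 8.11 and 8.15, and on the CD25+CD49f+ arrays 6.82, 7.62, 7.92 and 7.34. The CD25-CD49f- arrays lay above all others. Of the 5 CD25+CD49f- arrays, 4 lay above all 4 CD25+CD49f+ arrays, and replicate 1 lay among these.

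Fcer1g (chr1:171229572-171234349) codes the common gamma chain of Fc receptors. Its CD25-CD49f- levels were 6.06 at the lowest, 7.37 at the median and 8.14 at the highest, and its CD25-CD49f+ levels 6.07, 6.62 and 7.1. On the CD25+CD49f- arrays it read 8.29, 8.21, 8.24, 8.56 and 7.71, and on the CD25+CD49f+ arrays 5.43, 6.44, 6.7 and 6.33. The CD25+CD49f- arrays lay above every CD25+CD49f+ and every CD25-CD49f+ array, and replicate 5 lay within the range of the CD25-CD49f- arrays. The order of the group means was CD25+CD49f- (8.2 ± 0.31, SD, n = 5), CD25-CD49f- (7.29 ± 0.67, n = 7), CD25-CD49f+ (6.61 ± 0.34, n = 7) and CD25+CD49f+ (6.22 ± 0.55, n = 4). Neighbours in that order overlapped.

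Among the effector proteins, Mpeg1 (chr19:12460770-12465285) codes perforin-2, which forms pores in engulfed bacteria. It spanned 8.97 to 10.5 in CD25-CD49f- cells, with a median of 9.59, and 7.4 to 8.67 in CD25-CD49f+ cells, with a median of 8.44. The CD25+CD49f- arrays read 7.6, 8.46, 8.15, 8.29 and 8.16, and the CD25+CD49f+ arrays 7.71, 8.47, 8.35 and 7.96. The CD25-CD49f- arrays did not overlap with the rest, and the other 3 groups overlapped. Mpeg1 and Tyrobp read above 6.499 on all 23 arrays.

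Kmo (chr1:175632193-175660853), kynurenine 3-monooxygenase, acts in the breakdown of tryptophan. It read 6.01, 7.11 and 7.59 (lowest, median and highest) in CD25-CD49f- cells and 4.67, 4.86 and 5.24 in CD25-CD49f+ cells. The CD25+CD49f- levels were 4.47, 5.38, 4.88, 4.81 and 4.83, and the CD25+CD49f+ levels 4.66, 5.13, 5.06 and 4.7. Every CD25-CD49f- array lay above every other array, and the 3 lower groups had means of 4.87, 4.87 and 4.89. Its difference between CD25-CD49f+ and CD25-CD49f- cells was -2.09 ± 0.18, or 4.26-fold of the signals, close to that of Rnase6, -2.06 ± 0.22.

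Rnase6 (chr14:51123908-51132187) is a secreted enzyme of the RNase A family. It spanned 6.89 to 8.34 with a median of 7.36 in CD25-CD49f- cells and 4.65 to 5.97 with a median of 5.63 in CD25-CD49f+ cells. The CD25+CD49f- arrays read 5.72, 6.44, 6.08, 6.05 and 6.34, and the CD25+CD49f+ arrays 4.68, 5.85, 5.41 and 4.86. The CD25-CD49f- arrays were again apart from the rest. Of the lower groups CD25+CD49f- had the highest mean, and one of its arrays, replicate 1, lay below the highest CD25+CD49f+ array. All 16 values of the lower groups lay under 6.499, in the range of absent signals.

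Dnase1l3 (chr14:7965187-7994760) codes a secreted DNase that digests DNA in chromatin and microparticles, and it had 2 probe sets. The brighter read 6.37, 7.38 and 7.83 (lowest, median and highest) in CD25-CD49f- cells and 4.99, 5.39 and 5.71 in CD25-CD49f+ cells. Its CD25+CD49f- levels were 4.57, 4.77, 4.85, 5.2 and 4.74, and its CD25+CD49f+ levels 4.64, 5.18, 5.34 and 5.12. The CD25-CD49f- arrays lay above all others. The further probe set had group means of 4.44, 4.08, 3.9 and 4.01 in CD25-CD49f-, CD25-CD49f+, CD25+CD49f- and CD25+CD49f+ cells. It gave -0.36 ± 0.13 between CD25-CD49f+ and CD25-CD49f- cells, where the brighter one gave -1.86 ± 0.19, and all its group means lay in the range of absent signals.

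Spib (chr7:44525995-44532087) is an Ets transcription factor needed for plasmacytoid dendritic cell function and also used by B cells. It spanned 7.1 to 8.91 with a median of 7.6 in CD25-CD49f- cells and 5.93 to 7.02 with a median of 6.23 in CD25-CD49f+ cells. The CD25+CD49f- arrays read 5.73, 6.8, 6.23, 5.76 and 6.18, and the CD25+CD49f+ arrays 5.76, 6.92, 6.26 and 5.54. The groups did not overlap, but by a narrow margin: the lowest CD25-CD49f- level was 7.1 and single arrays of the other groups reached 7.02 and 6.92. The CD25-CD49f+, CD25+CD49f- and CD25+CD49f+ means, 6.25, 6.14 and 6.12, lay in the range of the absent signal.

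In CD25- cells, the contrast behind the choice of members, 9 of 10 transcripts had a lower mean in the CD49f+ gate and the median difference was -1.44, against -0.02 over all genes. For 7 of the 10 the groups did not overlap, which was so, in that direction, for 1.71% of all genes. Called genes made up 13.4% of all genes in this comparison and those called lower 5.42%. These shares are given for reference, since the members were picked here. The smallest differences were those of Fcer1g, -0.68 ± 0.24, and Fcgr3, 0.05 ± 0.16. Mpeg1 gave -1.4 ± 0.2, Tyrobp -1.44 ± 0.22, Rnase6 -2.06 ± 0.22 and Spib -1.43 ± 0.25. Without the 4 arrays that stood apart, the differences of Siglech and Kmo were -1.57 and -2.22, and those of Tyrobp and Itgax -1.31 and -1.91.

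Between CD25+CD49f- and CD25-CD49f- cells, which share the CD25-CD49f- arrays with the contrast above, the median of the members was -1.5 against -0.01 over all genes. For 8 the groups did not overlap and the CD25+CD49f- arrays were lower, as for 2.42% of all genes, and 14.0% of all genes were called. Dnase1l3 gave -2.35, Kmo -2.09, Mpeg1 -1.58, Spib -1.55, Rnase6 -1.46, Tyrobp -1.35 and Siglech -1.33. Fcer1g had the opposite sign, 0.92 ± 0.26. Between CD25+CD49f+ and CD25-CD49f+ cells the median was -0.28 against 0.02, from -0.77 ± 0.19 for Fcgr3 to 0.02 for Siglech, and every member's groups overlapped. In that comparison 5.72% of all genes were called, and for 3.9% the CD25+CD49f+ arrays lay below without overlap.

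**Figure D2:**
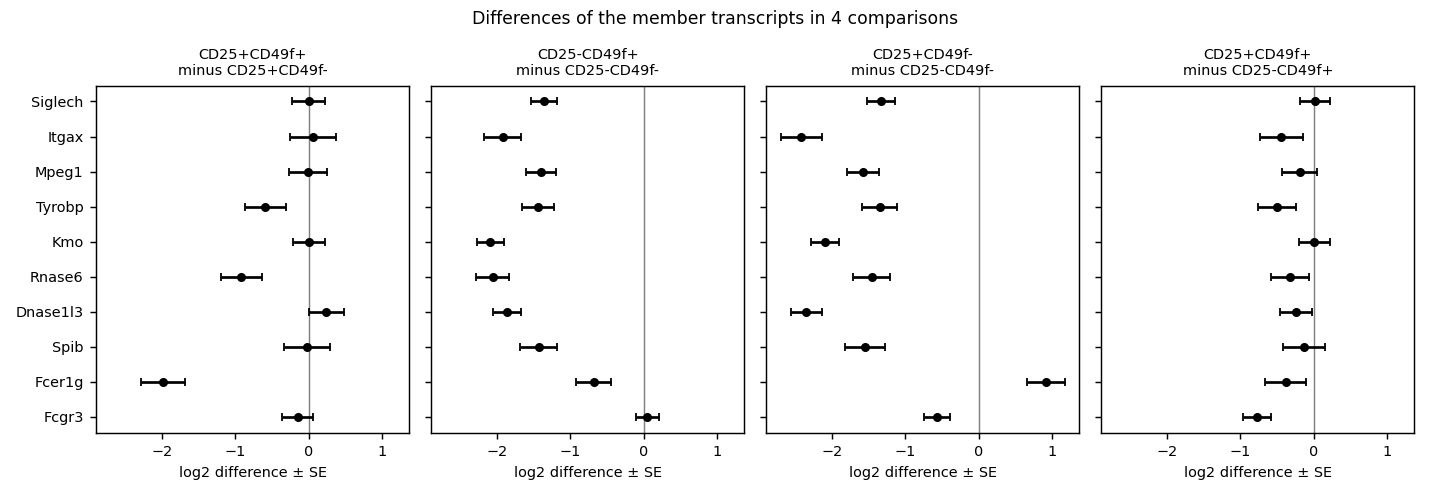
Log2 differences (horizontal axis, points) with their standard errors (bars) of the 10 transcripts in 4 comparisons, named above each panel. The first panel holds arrays outside the CD25- contrast that mainly guided the choice of members. The 8 transcripts named lie between -1.36 and -2.09 in the CD25- panel, and in the first panel Fcer1g lies at -1.98 while 6 of those 8 lie between -0.02 and 0.24.

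The comparison of CD25+CD49f+ with CD25+CD49f- cells used arrays outside the CD25- contrast that mainly guided the choice, and here the members were tested. Earlier results of these arrays may also have entered the choice, so the test may not be independent of it. One of the 10, Fcer1g, fell in CD25+CD49f+ cells, where 1.82% of all genes were called and 1.47% were called lower. Its difference was -1.98 ± 0.30, a 3.94-fold lower signal, with a limma adjusted p of 0.000147, and the 4 CD25+CD49f+ arrays lay below all 5 CD25+CD49f- arrays. Groups did not overlap in that direction for 2.95% of all genes. The difference was -2.32 (limma adjusted p = 0.00544) among arrays without Y-linked transcripts and -1.89 (limma adjusted p = 0.00428) among Y-linked arrays without Xist. Each of these fits set only 2 CD25+CD49f+ arrays against 2 CD25+CD49f- arrays, with the spread estimated together with the CD25- arrays. Leaving out 1 array at a time gave -2.14 to -1.71, and over all 35 alternatives the limma adjusted p ran from 1.56e-08 to 0.00544. The CD25+CD49f+ mean, 6.22, lies in the range of absent signals, so the size is that of the signals.

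Rnase6 differed by -0.92 ± 0.28 in the same comparison and did not pass (limma adjusted p = 0.126). It passed when CD25+CD49f+ replicate 2 was left out (-1.14, adjusted p = 0.0475) without the 4 arrays that stood apart (-0.87, adjusted p = 0.0356), with a replicate block (-0.84, adjusted p = 0.0262) and with array weights (-0.94, adjusted p = 0.00745). Over all 35 alternatives its limma adjusted p ran from 0.00745 to 0.889. Tyrobp, the other ITAM adaptor, gave -0.59 ± 0.28 (limma adjusted p = 0.656). The Fc receptor Fcgr3 gave -0.15 ± 0.21 and Dnase1l3 0.24 ± 0.24. Siglech, Mpeg1, Kmo, Spib and Itgax lay between -0.02 and 0.06, with standard errors of 0.22 to 0.32. None of these passed (limma adjusted p of 0.656 to 1), which does not show that the groups were alike. The median over the 10 members was -0.02 and over all genes 0.01.

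Per array, the mean of the 10 log2 levels was 7.77 ± 0.5 (SD, n = 7) in CD25-CD49f- cells and ran from 6.89 to 8.26. It was 6.35 ± 0.23 (n = 7) in CD25-CD49f+ cells, 6.39 ± 0.21 (n = 5) in CD25+CD49f- cells and 6.05 ± 0.35 (n = 4) in CD25+CD49f+ cells. CD25-CD49f- replicate 1 was the lowest of its group for all 10 members. The highest of that group was replicate 5 for 6 members and replicate 7 for 4. In CD25+CD49f- cells replicate 1 was the lowest for 8 members, and in CD25+CD49f+ cells replicate 1 was the lowest for 8.

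**Figure D3:**
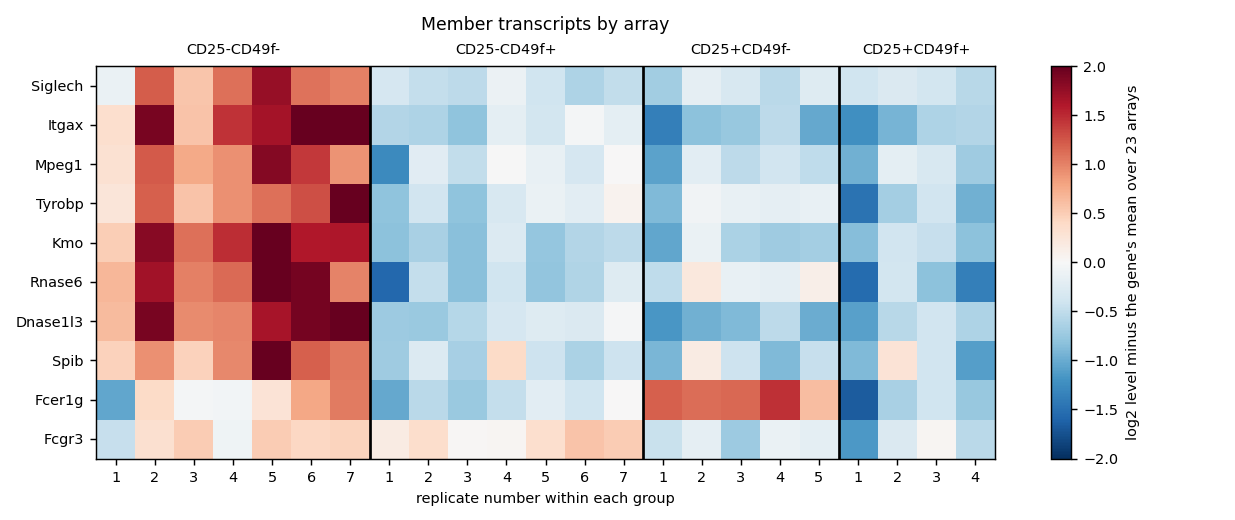
Each cell is the RMA log2 level of a transcript (rows) on an array (columns, by group and replicate number) minus that transcript's mean over 23 arrays, red above and blue below, with colours ending at -2 and 2. For 7 transcripts all 7 CD25-CD49f- arrays lie above the mean and for Siglech 6 do, with replicate 1 at -0.13, and Fcer1g is red on the 5 CD25+CD49f- arrays.

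Within the CD25- groups the members were also set against the Y-linked transcripts. In CD25-CD49f- cells the 3 Y-linked arrays lay above the other 4, without overlap, for Itgax, Tyrobp, Dnase1l3 and Fcer1g, and for no member below them. Of all genes, 1.98% lay above and 2.29% below in the same way. In CD25-CD49f+ cells this was so for Tyrobp, Dnase1l3 and Fcer1g, against 1.6% of all genes above and 1.37% below. The difference between the CD49f gates of CD25- cells was therefore taken within each kind of array. For Itgax it was -1.55 among arrays without Y-linked transcripts and -2.41 among Y-linked arrays, for Tyrobp -1.28 and -1.65, and for Dnase1l3 -1.64 and -2.16. Siglech gave -1.18 and -1.6, Kmo -1.93 and -2.31, Rnase6 -2.06 and -2.08, Mpeg1 -1.45 and -1.34, Spib -1.35 and -1.54, Fcer1g -0.48 and -0.94, and Fcgr3 0.03 and 0.08. Whether these pairs of values differ was not tested.

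Siglech was then followed from array to array within a group, which the contrast behind the choice did not use. Over the 7 CD25-CD49f- arrays it went with Kmo most closely (Pearson's r = 0.99, exact permutation p = 0.00119, adjusted p = 0.0337 over 34 relations, Spearman's rho = 0.86 with exact permutation p = 0.0238). The pore-forming Mpeg1 followed with r = 0.93 (exact permutation, adjusted p = 0.0472, rho = 0.89). Of the plasmacytoid dendritic cell genes that are not members, only Bst2, Klra17 and Tcf4 were set against Siglech. Bst2, a surface protein that tethers virus particles, had r = 0.96 and the lectin Klra17 r = 0.91 (exact permutation, adjusted p = 0.0337 for both, rho = 0.82 and 0.93). The other 7 members had r of 0.57 (Tyrobp) to 0.84 (Spib), and none of them passed after adjustment. Of further genes, Tcf4 gave r = 0.8, the macrophage gene Lyz2 0.75 and H2-Aa 0.58 without passing, with rho of 0.86, 0.18 and 0.39. Cd79a of B cells gave r = -0.09, Cd3e -0.21 and Foxp3 -0.45.

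These relations rest in part on the extreme arrays. Without CD25-CD49f- replicates 5 and 1, the 2 farthest from the Siglech median, r was 0.93 for Kmo, 0.67 for Mpeg1, 0.65 for Bst2 and 0.66 for Klra17 over 5 arrays, and none passed after adjustment. By Spearman's rho none passed either. The kinds with 3 and 4 arrays by Y-linked transcripts hold too few for a value of their own. In the 7 CD25-CD49f+ arrays none of the 17 relations passed (no member had an exact permutation p under 0.05), and r with the other 9 members ran from -0.62 to 0.75 with a median of -0.05. There Siglech itself spanned only 5.54 to 6.03.

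**Figure D4:**
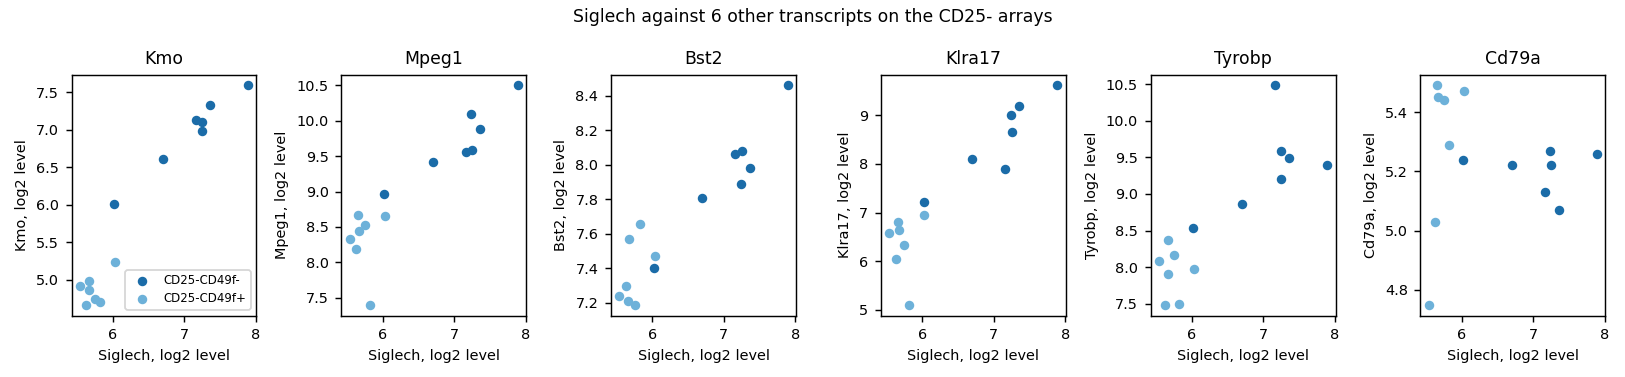
Siglech (horizontal axis) against 6 other transcripts (vertical axes), all RMA log2 levels, on the 7 CD25-CD49f- arrays (dark) and 7 CD25-CD49f+ arrays (light). Kmo rises with Siglech over the dark points (r = 0.99), which a lone low and a lone high array stretch, and Cd79a does not (r = -0.09).

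Over all 23 arrays, 8 members had r of 0.893 (Spib) to 0.959 (Kmo) with the mean of the other 9, Fcgr3 had 0.521 and Fcer1g 0.312. These r hold the differences between groups. With each group's mean taken off, Kmo again had the highest r, 0.886, Fcer1g had 0.775, Fcgr3 0.651 and Spib the lowest, 0.638. Genes outside the set were ranked by their likeness to the mean of the members, with clone and model numbers passed over. Those whose levels were most like it were Ctsh (r = 0.972), Napsa (0.968), Pld4 (0.968), Wdfy4 (0.958), Ccnd1 (0.955), Themis2 (0.954), Klra17 (0.948) and Mycl (0.947). Ctsh and Napsa code lysosomal proteases, and Pld4 a nuclease of endosomes. By deviations from group means they were Napsa (0.926), Pld4 (0.926), H2-Eb1 (0.922), Cd86 (0.917), Cd74 (0.917), Rassf4 (0.916), Plbd1 (0.913) and Syk (0.909). Cd86, a costimulatory ligand of antigen-presenting cells, had group means in another order, 6.69, 7.17, 7.41 and 8.19 in CD25-CD49f-, CD25-CD49f+, CD25+CD49f- and CD25+CD49f+ cells. These r describe arrays that share groups and processing.

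Further genes of the same cells were taken from lists of known markers, written with earlier results of these data known, so their counts in CD25- cells are no independent evidence of a direction. Of 20 measured plasmacytoid dendritic cell genes outside the set, 13 fell in CD25-CD49f+ against CD25-CD49f- cells (limma, 5.42% of all genes called lower and 8.01% higher), with a median of -0.53 against -0.02 over all genes. Klra17 (-2.17 ± 0.31, adjusted p = 1.27e-05), Tcf4, the E protein that directs plasmacytoid dendritic cells (-1.42 ± 0.29, adjusted p = 0.00109), and Atp1b1 (-1.29 ± 0.11, adjusted p = 2.38e-09) led, with Ccr9 at -0.96, Havcr1 at -0.93, Irf8 at -0.83, Upb1 at -0.74 and Bst2 at -0.58. The mean level of the list ran from 6.59 to 7.27 on CD25-CD49f- arrays and from 6.13 to 6.42 on CD25-CD49f+ arrays. Among arrays without Y-linked transcripts 7 fell, and among Y-linked arrays 10. In CD25+CD49f+ against CD25+CD49f- cells 1 fell, the chemokine receptor Ccr9 (-2.36 ± 0.23, adjusted p = 1.65e-07), while Tcf4 gave -1.19 and Bst2 -0.37 without passing. Without CD25-CD49f+ replicate 1, 2 fell. Ccr9 is also carried by T cells that home to the gut. In CD25+CD49f- against CD25-CD49f- cells 7 of the 20 fell, led by Klra17 (-2.18), Lair1 (-1.62) and Atp1b1 (-1.12), and 3 rose: Ccr9 (0.84), Tlr7 (0.63) and Pacsin1 (0.38), with 4.68% of all genes called lower and 9.34% higher. Tcf4 (-0.32), Irf8 (-0.53) and Bst2 (-0.12) did not pass there.

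Of 12 conventional dendritic cell genes, 7 fell and 1 rose in CD25-CD49f+ against CD25-CD49f- cells, with a median of -0.6. Tbc1d8 (-1.88), the lectins Clec10a (-1.67, adjusted p = 3.2e-07) and Cd209a (-1.57), and the receptor tyrosine kinase Flt3 (-0.51) were among those that fell. Cd83, which activated T cells also carry, rose (1.48 ± 0.17), and Zbtb46 gave -0.25 without passing. Without CD25-CD49f+ replicate 3, 2 of the 12 rose. Their mean level was 6.44 to 7.26 on CD25-CD49f- and 6.3 to 6.54 on CD25-CD49f+ arrays. In CD25+ cells 1 fell, the transcription factor Batf3 (-1.78 ± 0.19, limma adjusted p = 4.6e-07), which T cells use as well, and the median was -0.01.

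Class II presentation genes, which dendritic cells, B cells and macrophages use, were called in both comparisons of the CD49f gates. In CD25+CD49f- against CD25-CD49f- cells 2 of 9 fell, with a median of -0.52, where 4.68% of all genes were called lower. Leaving out 1 array there gave 0 to 5. In CD25- cells 8 of 9 fell in the CD49f+ gate, with a median of -1.31: H2-Eb1 -1.85, H2-Ab1 -1.82, the invariant chain Cd74 -1.73 and H2-Aa -1.48 ± 0.21 (limma adjusted p = 1.01e-05). In CD25+ cells 4 of 9 fell, with a median of -0.67: H2-Aa -1.7 ± 0.27 (limma adjusted p = 0.000208), H2-Ab1 -1.54, Cd74 -1.41 and H2-Eb1 -1.39. Only 1 of the 9 passed in CD25+ cells without CD25+CD49f+ replicate 1, 1 among arrays without Y-linked transcripts and 2 among Y-linked arrays. The mean level of the list was 8.48 to 8.71 on CD25+CD49f- and 7.35 to 8.2 on CD25+CD49f+ arrays. Of the 10 members, Fcer1g (-1.98), which passed, Rnase6 (-0.92) and Tyrobp (-0.59) lay lowest in that comparison, and the rest lay between -0.15 and 0.24.

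Markers of other cells were counted in the same way. Of 16 monocyte and macrophage genes, 3 rose and 3 fell in CD25- cells (Ccr2 0.73, C1qc 0.57, C1qb 0.38, Cd68 -1.07, Adgre1 -0.64 and Cx3cr1 -0.31), and Csf1r, the receptor of their growth factor, gave -0.07 without passing. Of 13 B cell genes 1 fell, Fcrla (-0.78), which lost its call without any 1 of CD25-CD49f- replicates 5 and 6 and CD25-CD49f+ replicates 1 and 6, and Cd79a gave 0.07 without passing. The mean level of the B cell list was 5.98 to 6.83 on CD25-CD49f- and 6.18 to 6.78 on CD25-CD49f+ arrays. That of the monocyte and macrophage list was 5.35 to 6.0 and 5.55 to 5.88, in the range of the absent signal. Of 9 NK cell genes Eomes rose (0.55) and Prf1 fell (-1.48), and cytotoxic T cells use both. Without CD25-CD49f- replicate 1 or 7, 2 of the 9 fell. The mean level of the NK cell list, 5.23 to 5.74 on CD25-CD49f- and 5.06 to 5.55 on CD25-CD49f+ arrays, also lay in that range. None of 9 neutrophil genes and none of 10 T cell genes passed in limma, where 1 and 2 had an unadjusted p under 0.05. With single arrays omitted, 0 to 2 T cell genes were called higher (above 0 without CD25-CD49f- replicate 5 or CD25+CD49f- replicates 1 or 5) and 0 to 1 lower (without CD25-CD49f- replicate 7). In CD25+ cells Adgre1 (-0.93), Blk (-0.8) and Eomes (-0.75) fell and Cd28 rose (0.51), 1 gene of each list, where 0.352% of all genes were called higher. The call of Cd28 was lost in 19 of the 23 fits that leave out 1 array. No NK cell gene fell without any 1 of CD25+CD49f- replicates 1 and 2 and CD25+CD49f+ replicates 1, 3 and 4, and 2 fell without CD25+CD49f- replicate 5. The part of any of these cells in the levels of the members was not tested.

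**Figure D5:**
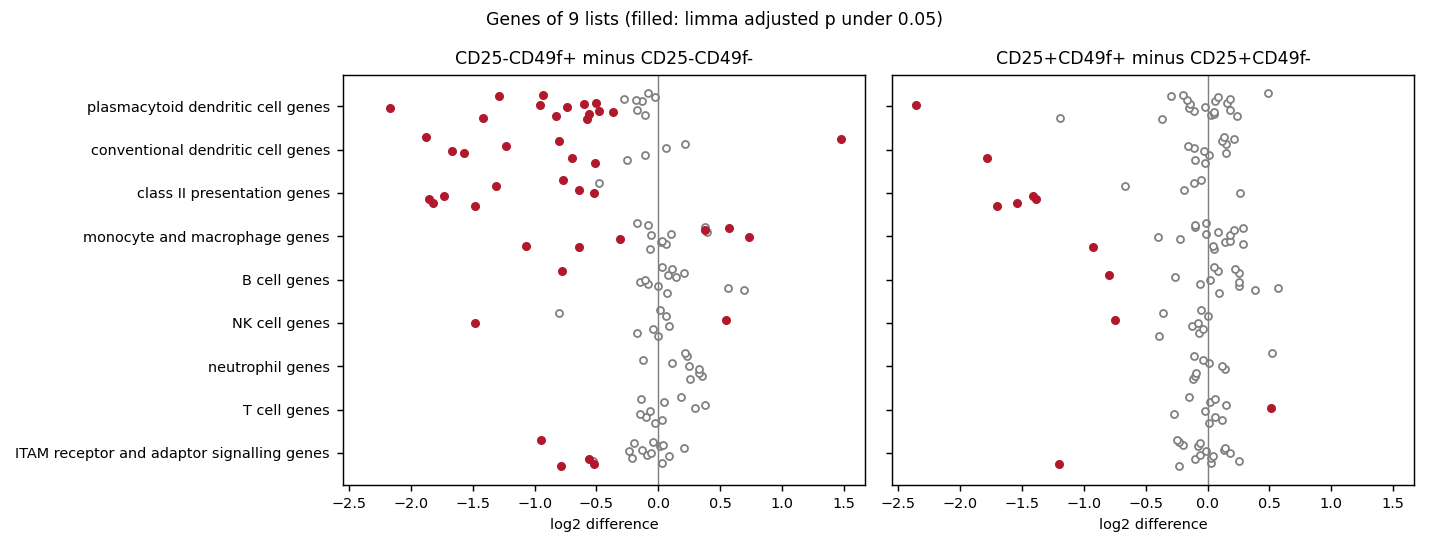
Log2 differences (horizontal axis) of the genes of 9 lists (rows) between CD49f+ and CD49f- cells, in CD25- cells on the left and CD25+ cells on the right; filled points have a limma adjusted p under 0.05. On the left 13 plasmacytoid dendritic cell, 7 conventional dendritic cell and 8 class II genes are filled below 0, and on the right 1, 1 and 4.

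The pathways in which members act were followed through their other genes. Of 17 genes of ITAM receptors and their signalling, 4 fell in CD25-CD49f+ against CD25-CD49f- cells: the receptor Cd300lf (-0.95), the kinases Syk (-0.79) and Fgr (-0.56), and the phospholipase Plcg2 (-0.52). In CD25+ cells, where Fcer1g fell, Plcg2 alone of the 17 passed (-1.2 ± 0.17, limma adjusted p = 5.01e-05) and Syk gave -0.23. Of 10 kynurenine pathway genes around Kmo, Kynu fell (-0.63), Kyat3 rose (0.45) and Ido1, which starts the pathway, gave -0.16 without passing in CD25- cells. Without CD25-CD49f- replicate 5 or CD25-CD49f+ replicate 1, 2 of the 10 fell. Of 10 Ets and Irf factors beside Spib, Spi1 (-0.66) and Irf8 (-0.83) fell and Irf4, which T cells induce on activation, rose (1.43). Without CD25-CD49f- replicate 7, 3 of these factors rose. Of 9 genes of nucleic acid sensing, the RNA sensor Tlr7 (-0.48) and its chaperone Unc93b1 (-0.64) fell, and the DNA sensor Tlr9 gave -0.17 without passing. Without CD25-CD49f+ replicate 3, 1 of the 9 fell. Tlr7 and Irf8 stand on the plasmacytoid dendritic cell list too. Of 3 beta 2 integrin genes beside Itgax, Itgal rose (0.33), and the shared beta chain Itgb2 gave 0.06. Of 10 RNase A and DNase I family genes, Rnase4 rose (1.22) in CD25- cells and fell (-0.77) in CD25+ cells.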

How the data were processed

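Total RNA of sorted mouse CD4+ T cells was measured on 23 arrays. The authors deposited log2 expression values of 45101 probe sets, made with RMA per the submitters' processing notes (version not given in the sources used here), and no further scaling was applied. Probe sets were named through the array annotation: 34958 had 1 gene, 932 several and 9211 none, and 34754 matched RefSeq (GRCm38.p6). The probe set with the highest mean stood for a gene, giving 18194 genes. In R 4.3.3, limma 3.58.1 (1 mean per group, contrasts, eBayes) gave the differences, with Benjamini-Hochberg adjustment. The number of arrays limits the precision. The members and lists were chosen with earlier results of these data known, mainly the CD49f difference in CD25- cells, so members were tested only in CD25+CD49f+ against CD25+CD49f- cells. The named genes were all members, Il2ra, Itga6, Foxp3 and Cd4, from each of 14 lists the first 2 genes and up to 4 called ones, and the 8 genes most like the members by either measure. Clone and model numbers were passed over among the latter. Further list genes, Cd3e among them, and repeats of a gene in a comparison where it did not pass were named after their values were seen. Of 171 different list genes 152 were measured. Relations of Siglech used exact two-sided permutation tests over 34 relations. The fit and the permutation test were tested on simulated data. As alternatives, single arrays were left out in turn and the fit was run with a replicate block, array weights, trended robust eBayes, quantile and median scaling, the mean of probe sets, every probe set, the brighter genes and the compared groups alone. Chosen after seeing the data were a fit that omits the 4 arrays that stood apart and fits within arrays with or without Y-linked transcripts, called present above 6 (Xist above 8). Python 3.11.15 with matplotlib 3.10.9 drew the figures.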

Additional observations from a re-analysis of the deposited data

Results flagged for a closer look

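Of 68 groups of values, 6 had a single array far from the others, where chance gives about 1 in 20. Mpeg1 read 7.4 on CD25-CD49f+ replicate 1 (group median 8.44), and on that array Cd4 read 9.88 (median 9.49). Tyrobp read 7.42 on CD25+CD49f- replicate 1 (median 8.15). Spib read 8.91 on CD25-CD49f- replicate 5 (median 7.6) and 7.02 on CD25-CD49f+ replicate 4 (median 6.23). Cd3e read 12.22 on CD25-CD49f- replicate 7 (median 11.6). CD25-CD49f+ replicate 1 and CD25-CD49f- replicate 7 were also among the 4 arrays that stood apart over all genes.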

How the results depend on the processing

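Of 1388 member differences over all comparisons and alternatives, 55 changed sign: 34 in the tested comparison, 4 (Fcgr3) in CD25- cells and 17 (Kmo, Siglech and Spib) in CD49f+ cells, each with a size of at most 0.181 afterwards. In CD25+CD49f+ against CD25+CD49f- cells 1 member was called, and 2 (Fcer1g and Rnase6) with a replicate block, with array weights or without the arrays that stood apart; leaving out 1 array gave 1 to 2. The sign changes there were of uncalled values near 0: Siglech 0.07 with the replicate block, 0.01 with array weights, 0.03 without the arrays that stood apart and 0.09 on arrays without Y-linked transcripts; Mpeg1 0.08, 0.0 with quantile scaling and 0.05 without Y-linked transcripts; Spib 0.08 with the block and 0.07 without Y-linked transcripts. Kmo gave -0.01 with array weights, 0.0 with quantile and with median scaling and -0.03 without Y-linked transcripts, and Fcgr3 gave 0.18 on Y-linked arrays. Leaving out 1 array gave -0.08 to 0.05 for Siglech, -0.05 to 0.19 for Itgax, -0.15 to 0.12 for Mpeg1, -0.09 to 0.14 for Kmo, -0.29 to 0.17 for Spib and -0.32 to 0.08 for Fcgr3.

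Genes called in that comparison were 332, and 762 with array weights, 203 among the 9097 brighter genes (fewer tested), 588 without the arrays that stood apart, 119 on arrays without and 92 on arrays with Y-linked transcripts (fewer arrays); leaving out 1 array gave 257 to 432. In CD25- cells 2443 were called, 3742 with array weights, and 1340 and 1080 within the kinds by Y-linked transcripts, with 2126 to 2720 on leaving out 1 array. In CD49f- cells 2551 were called, 1284 and 1004 within the kinds, 2245 to 2768 on leaving out 1. In CD49f+ cells 1040 were called, 3083 with array weights, 2361 without the arrays that stood apart, 493 and 264 within the kinds, and 785 to 1325 on leaving out 1. Why array weights moved these counts was not tested.

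In CD25-CD49f- cells 4 relations of Siglech passed, and 0 by Spearman's rho, 0 without the 2 farthest arrays (fewer arrays), 0 without the arrays that stood apart and 0 to 2 on leaving out 1 array. Without the farthest arrays, or without those that stood apart, too few orderings were left for a single relation to pass after adjustment. In CD25-CD49f+ cells none passed, and 0 to 1 on leaving out 1 array, the 1 being without replicate 3.

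Over all genes, replicate numbers did not clearly pair the arrays. Deviations of 29 same-numbered pairs correlated at -0.514 to 0.413 (14 over 0.1), and 13 pairs differed in Y-linked transcripts. Of 58 arrays compared, 9 were closest to their own number. The mean of the members was lowest on replicate 1 in CD25-CD49f- (6.89), CD25-CD49f+ (5.97), CD25+CD49f- (6.05) and CD25+CD49f+ cells (5.61). A replicate block lowered the standard errors of all members in the tested comparison, for Tyrobp from 0.28 to 0.16 and for Siglech from 0.22 to 0.21. Whether the numbers pair the arrays for these genes was not tested. With the replicate block 322, 2421, 2372 and 936 genes were called in the comparisons in the order above, and Rnase6 passed (-0.84, limma adjusted p = 0.0262). The low signals of Siglech, Kmo, Rnase6, Dnase1l3, Spib and Fcgr3 limit what their differences among the 3 lower groups can show. So do those of Itgax in CD25+ cells.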
